A study of Mus musculus with 27 samples.

Results

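The serpins are a family of protease inhibitors, and their DNA methylation was examined in mouse hepatocytes. Members were the protein-coding genes of the GRCm38 gene table whose symbols start with Serpin, which gave 63 genes of 21887. A cytosine position was assigned to a gene when it lay within the gene span or within 2 kb of either end. Positions were kept when listed in at least 2 of the 3 samples of every strain. Of the 63 genes, 35 held a kept position, 27 held at least 3, 8 held 1 or 2 and 28 held none, and their windows held 660 of the 1951628 kept positions.

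Reduced representation bisulfite sequencing (RRBS), in which MspI cuts the genome at CCGG and bisulfite tells methylated from unmethylated cytosines, was run on hepatocyte DNA from the liver of 12-week-old female mice. Each of 9 inbred strains gave 3 samples, 27 in all. WSB/EiJ, CAST/EiJ and PWK/PhJ descend from wild mice, and C57BL/6J, A/J, 129S1/SvImJ, NOD/ShiLtJ, DBA/2J and NZO/HlLtJ are classical laboratory strains. No treatment is labelled in any group, and the comparison asks where methylation differs with strain. Each level is an average over the cells of a preparation, so a change in the mixture of cells and a change within cells cannot be told apart.

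Most serpins present a reactive loop to a serine protease, are cleaved, and trap the enzyme in an inactive complex. Hepatocytes secrete many of them into plasma, among them antitrypsin (the Serpina1 genes of the mouse) and antithrombin (Serpinc1), while the clade b serpins act mainly inside cells. Methylation at a gene's start is commonly low where that start is CpG-rich or in use, and gene bodies are commonly methylated. The members were divided into 18 genes that hepatocytes are known to secrete, called the hepatocyte list here, and 45 other serpins.

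Promoters of 5 members are printed as examples of starts with and without kept positions in this family. The RefSeq promoter table (GRCm38.p6, 250 bases before to 50 after a start) held 54 of the 63 members. Each sequence runs 5′ to 3′ along the gene's strand, and capitals mark each CG. Serpina1a lies at chr12:103863570-103863869 (minus strand) and Serpinc1 at chr1:160978333-160978632 (plus strand), and these are the antitrypsin and antithrombin starts. Serpine2 lies at chr1:79858616-79858915 and Serpinb6a at chr13:34002745-34003044 (both minus strand), and these are CpG-rich starts. Serpinb9c, at chr13:33158302-33158601 (minus strand), is a start whose values differed among strains.
Serpina1a: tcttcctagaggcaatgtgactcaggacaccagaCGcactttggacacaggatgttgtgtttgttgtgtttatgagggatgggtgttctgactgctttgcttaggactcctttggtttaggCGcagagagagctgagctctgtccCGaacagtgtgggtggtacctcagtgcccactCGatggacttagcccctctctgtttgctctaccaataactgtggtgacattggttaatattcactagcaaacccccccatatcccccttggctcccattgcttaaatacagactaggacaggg
Serpinc1: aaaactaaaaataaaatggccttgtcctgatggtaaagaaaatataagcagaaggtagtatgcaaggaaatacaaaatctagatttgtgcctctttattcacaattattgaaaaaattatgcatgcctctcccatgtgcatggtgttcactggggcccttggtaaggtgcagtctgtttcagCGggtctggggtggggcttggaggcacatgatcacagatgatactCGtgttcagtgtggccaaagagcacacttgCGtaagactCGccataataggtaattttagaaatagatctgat
Serpine2: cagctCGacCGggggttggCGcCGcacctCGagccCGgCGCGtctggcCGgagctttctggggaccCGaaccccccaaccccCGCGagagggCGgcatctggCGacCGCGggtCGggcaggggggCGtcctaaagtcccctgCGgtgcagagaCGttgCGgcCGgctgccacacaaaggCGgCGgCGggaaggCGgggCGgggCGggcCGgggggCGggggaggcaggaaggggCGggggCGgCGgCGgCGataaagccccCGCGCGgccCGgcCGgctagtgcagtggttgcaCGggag
Serpinb6a: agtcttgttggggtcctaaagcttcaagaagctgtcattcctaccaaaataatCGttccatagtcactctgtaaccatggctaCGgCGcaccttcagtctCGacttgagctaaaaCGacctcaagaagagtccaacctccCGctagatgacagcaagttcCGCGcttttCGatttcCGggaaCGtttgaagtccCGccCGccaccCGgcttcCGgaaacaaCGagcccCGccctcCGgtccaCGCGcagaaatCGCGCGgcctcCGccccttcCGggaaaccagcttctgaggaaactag
Serpinb9c: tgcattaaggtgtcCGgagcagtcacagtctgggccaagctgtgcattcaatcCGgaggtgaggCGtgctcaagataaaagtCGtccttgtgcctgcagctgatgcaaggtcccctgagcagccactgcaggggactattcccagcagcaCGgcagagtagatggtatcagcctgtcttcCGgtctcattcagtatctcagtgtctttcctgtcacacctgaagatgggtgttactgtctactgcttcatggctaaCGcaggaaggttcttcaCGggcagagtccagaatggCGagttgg

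The Serpina1a and Serpinc1 promoters each held 4 CpGs and 0 CCGG, and neither held a kept position. The Serpine2 promoter held 41 CpGs, 7 CCGG and 55 kept positions, where the 2 strands of a CpG count as separate positions. The Serpinb6a promoter held 25 CpGs, 5 CCGG and 23 kept positions, and the Serpinb9c promoter held 9 CpGs, 3 CCGG and 5 kept positions. CCGG, which reads the same on both strands, occurred in 22.2% of the 63 serpin promoters against 62.2% of the 21263 promoters of protein-coding genes. It was in 2 of 15 promoters of the hepatocyte list (13.3%) and in 12 of 48 promoters of the other serpins (25%). The median promoter held 3 CpGs in each of these serpin lists and 13 across all promoters. Such a match is a description of these letters and does not show that the position was read. The 2 hepatocyte-list promoters with CCGG, Serpinf2 and Serpina1b, held 0 kept positions. Among the other serpins, Serpina16, Serpina3g, Serpinb9f, Serpinb9g, Serpinb6c and Serpine3 held CCGG and 0 kept positions. Serpine2, Serpinb6a, Serpinb9c, Serpini1, Serpinh1 and Serpinb8 held both. A promoter without a kept position may still have been listed in some samples.

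Serpins were covered thinly. The median member held 1 kept position against 57 for the median gene, and 44.4% of members held none against 18.7% of genes. In the hepatocyte list 9 of 18 genes held none: Serpina1a, Serpina1b, Serpina1c and Serpina1e (antitrypsins), Serpina3k and Serpina3m, Serpina6 (corticosteroid-binding globulin), Serpina7 (thyroxine-binding globulin) and Serpind1 (heparin cofactor). Serpina1a had 24 positions listed in some sample, and 0 of them met the rule for every strain. The Serpina1 genes are near-identical copies, and a read that matches more than 1 copy cannot be assigned with certainty. How such reads were handled is not known, and their placement was not tested. Serpina1d, the antitrypsin copy with 5 kept positions, is therefore uncertain. Across samples, 2904787 to 3156965 positions were listed, the mean level over kept positions was 29.99 to 31.8%, and pairs of samples correlated at 0.945 to 0.973 across positions. The read depth behind each percentage is unknown, so no counting interval is given. Of 5 known hepatocyte genes 4 had at least 3 positions, at a median level of 8.51%. The leukocyte, endothelial, stellate and fibroblast, and bile duct gene lists had medians of 83.1, 69.4, 53.4 and 36.8%. Single genes overlapped: the hepatocyte genes ran from 4.59 to 51.3% (Ttr). In the 4 other lists they ran from 60.9 to 85.7%, 32.9 to 89.5%, 50.5 to 55.3% and 28.4 to 43.3%, in the same order. The places read were unlike: 10 of 10 positions of Fgb and 10 of 11 of Apob lay within 1 kb of a start. Within 1 kb of their starts, Col1a2, Kdr and Epcam of the other lists were at 1.39, 3.13 and 11.4%. Krt7, Tek and Laptm5 were at 24.3, 68.6 and 94.8% there. The lists are therefore not compared at like places. Methylation measures no RNA, so these values do not measure purity.

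Levels in the 27 genes with at least 3 positions ran from 0.858% at Serpine2 to 96.8% at Serpina3j. The hepatocyte list had 8 such genes, with a median of 42.9%, and 1 of them lay under 10%, 4 between 10 and 60% and 3 at or above 60%. The other serpins had 19, with a median of 69.9%, and 3, 3 and 13 in those classes. Over all 17198 genes with at least 3 positions the median was 22.3%, and 19.5% of genes lay at or above 60%. Both serpin medians thus lay above the median gene, but the places read were unlike. Of all genes with a promoter entry, 69.4% held a kept position within 1 kb of a start. The shares were 7.69% in the hepatocyte list and 22% in the other serpins.

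**Figure D1:**
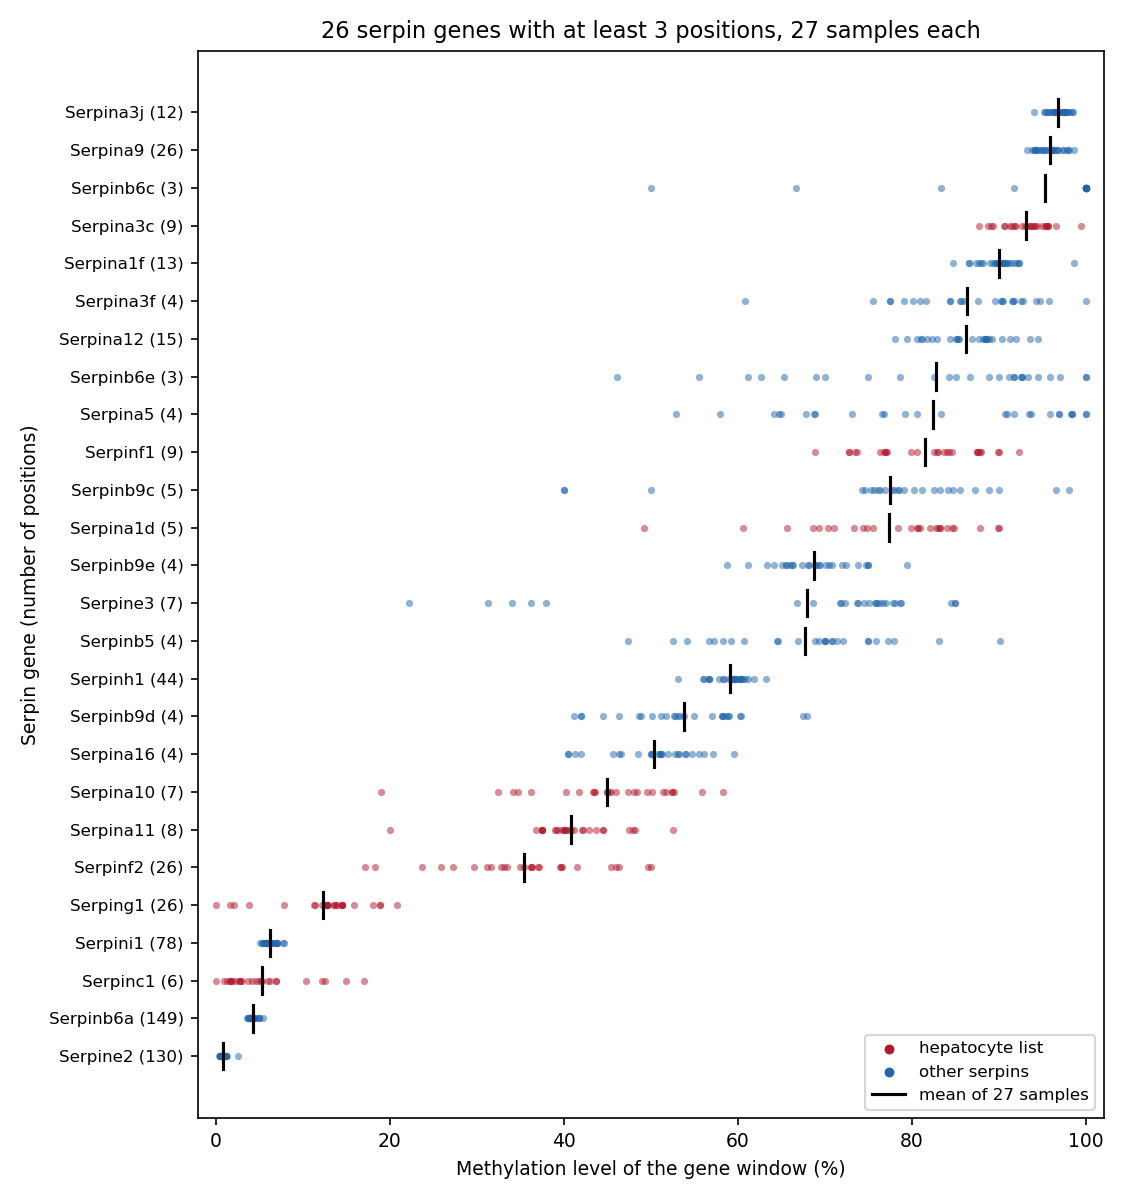
Methylation level in percent (horizontal axis) of 26 of the 27 serpin genes with at least 3 positions (vertical axis, with its number of positions). Points are the 27 samples, coloured by list, and black lines are means, which run from 0.858% at Serpine2 to 96.8% at Serpina3j.

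Within a sample, the median of the hepatocyte list was 44.0% ± 4.82 (SD, n = 27) and that of the other serpins 72.8% ± 4.21. The hepatocyte list was lower in every sample, by 28.8 points on average, with differences from -45.5 to -16.8 points. By strain the mean difference ran from -36.0 ± 8.24 points in CAST/EiJ (SD, n = 3) to -26.6 ± 4.31 in A/J. The lists are fixed sets of 8 and 19 genes read at different places, so the repeat of the sign over samples is no independent support. With positions farther than 1 kb from a start alone, the difference was -20.8 points. That value covers 6 and 13 genes, so the genes changed along with the positions. With means in place of medians over genes the difference was -16.3 points.

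The 2 lists were read at different distances from starts. Of genes with a promoter entry, 1 of 13 in the hepatocyte list had a kept position within 1 kb of a start (7.69%). This compares with 9 of 41 other serpins (22%) and 69.4% of all genes. That gene was Serpina3n, an acute-phase antichymotrypsin-like serpin, with 2 positions at 256 and 405 bp after its start and a mean of 3.61%. Among the other serpins, 353 positions within 1 kb had a median of 0.54% and 336 of them lay under 10%. Of these, 130 belonged to Serpine2 and 131 to Serpinb6a. By gene, 4 of the 9 were high near a start: Serpina16 at 50.3%, Serpinb9c at 77.5% (its inner start), Serpinb6e at 83.4% and Serpinb1c at 87.5%, the last from 1 position. Farther out the order of the lists changed with distance. Genes without a promoter entry, among them Serping1, Serpina10 and Serpina9, have no distance and are left out of these medians. From 1 to 2 kb the hepatocyte list had a median of 93.2% (12 positions, 4 genes) and the other serpins 72.6% (37 positions, 5 genes). From 2 to 5 kb the medians were 11.4% (18 positions, 4 genes) and 96.6% (32 positions, 5 genes). Beyond 5 kb they were 75.1% (33 positions, 4 genes) and 91.8% (68 positions, 13 genes). The means were 65.7 and 53.4%, 28.6 and 90.6%, and 58.7 and 68.6%, in the same order. Few genes thus set most of these values, and positions of 1 gene are not replicates of a list. The effect of position on the list difference cannot be told apart from the genes themselves here.

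Inhibitors that act in coagulation and fibrinolysis differed in level. Serpinc1 (antithrombin, chr1:160978583-161002543) averaged 5.34% over 6 positions, which lay 1951 to 2263 bp after its start. All 6 position means lay between 3.14 and 6.71%, so this stretch inside the gene had low methylation. Serpinf2 (antiplasmin, the plasmin inhibitor) averaged 35.4% over 26 positions. Serpina10, an inhibitor that works with protein Z, averaged 45.0% over 7 positions, from 2.27 to 90.3% at single positions. Serpina5, the protein C inhibitor, which is not in the hepatocyte list, averaged 82.4% over 4 positions.

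Serping1 (the inhibitor of the first complement component, chr2:84765360-84775444) combined both extremes. It averaged 12.3% over 26 positions. Of these, 23 at one end of the gene had a median of 2.29%, and 22 of the 23 lay under 10%. The 3 at the other end were at 89.9 to 96.0%, and each was listed in 23 of 27 samples. Serpinf1, the pigment epithelium-derived factor, was at 81.5% over 9 positions and Serpina3c, of the antichymotrypsin-like group, at 93.1% over 9. Serpina11, a hepatocyte serpin of the same chromosome 12 group, was at 40.8% over 8.

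Several serpins outside the hepatocyte list had starts with almost no methylation. Serpine2, protease nexin, averaged 0.858% over 130 positions, all within 1 kb of its start, and the 27 samples ran from 0.37 to 2.51%. Serpinb6a, an intracellular inhibitor, was at 1.04% over 131 positions near its starts and 27.7% over the positions farther away. Serpini1, neuroserpin, was at 4.78% near its start (63 positions), and Serpinh1, the collagen chaperone, at 4.93% (16 positions). Serpinh1 reached 90.6% farther out, so its gene mean of 59.0% averages 2 unlike parts. In Serpinb6a 127 positions also lay inside another gene (Nqo2 or Ripk1) and in Serpini1 55 lay inside Pdcd10, so these levels are shared with those neighbours.

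Most of the clade a genes of chromosome 12 outside the hepatocyte list were highly methylated. Serpina9 stood at 95.8% over 26 positions, Serpina3j at 96.8% over 12, Serpina1f at 89.97% over 13, Serpina12 (vaspin) at 86.2% over 15 and Serpina3f at 86.4% over 4. Serpina16 went against this, at 50.3% over 4 positions near its start, from 9.84 to 91.4% at single positions. Across clade a, 11 of 24 members had at least 3 positions, with a median of 86.2%. In clade b, whose genes lie in clusters on chromosomes 1 and 13, 7 of 28 had at least 3, with a median of 68.7%. Serpinb6c was at 95.3% over 3 positions and Serpinb5 (maspin) at 67.8% over 4.

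Strain differences were tested per gene with limma's moderated F test with Benjamini-Hochberg adjustment over all genes. A gene was called when its adjusted p was under 0.05 and its strain means spanned at least 10 percentage points. Of 15293 genes tested, 1254 passed (8.2%). Of 26 serpins tested, 6 passed: Serpine3, Serpinb9c, Serpina5, Serpinf2, Serpina3f and Serpina12. Genes with a mean under 2.5% were not tested, which left out Serpine2. Genes read at few positions were called more often: 18.1% of genes with under 10 positions passed, against 4 of 16 such serpins, and 7.32% of genes with 10 or more, against 2 of 10 such serpins. The median range over strains was 10.2 points in the 26 serpins and 3.19 points over all genes, which are read at more positions. Among genes with under 10 positions it was 15.3 points in serpins and 12.1 over all genes, and among genes with 10 or more it was 4.22 and 2.90 points. The adjusted p alone was under 0.05 in 7 serpins of 26 and in 30.2% of all genes. In the hepatocyte list 1 of 8 tested genes was called, and in the other serpins 5 of 18; the difference between the lists was not tested.

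**Figure D2:**
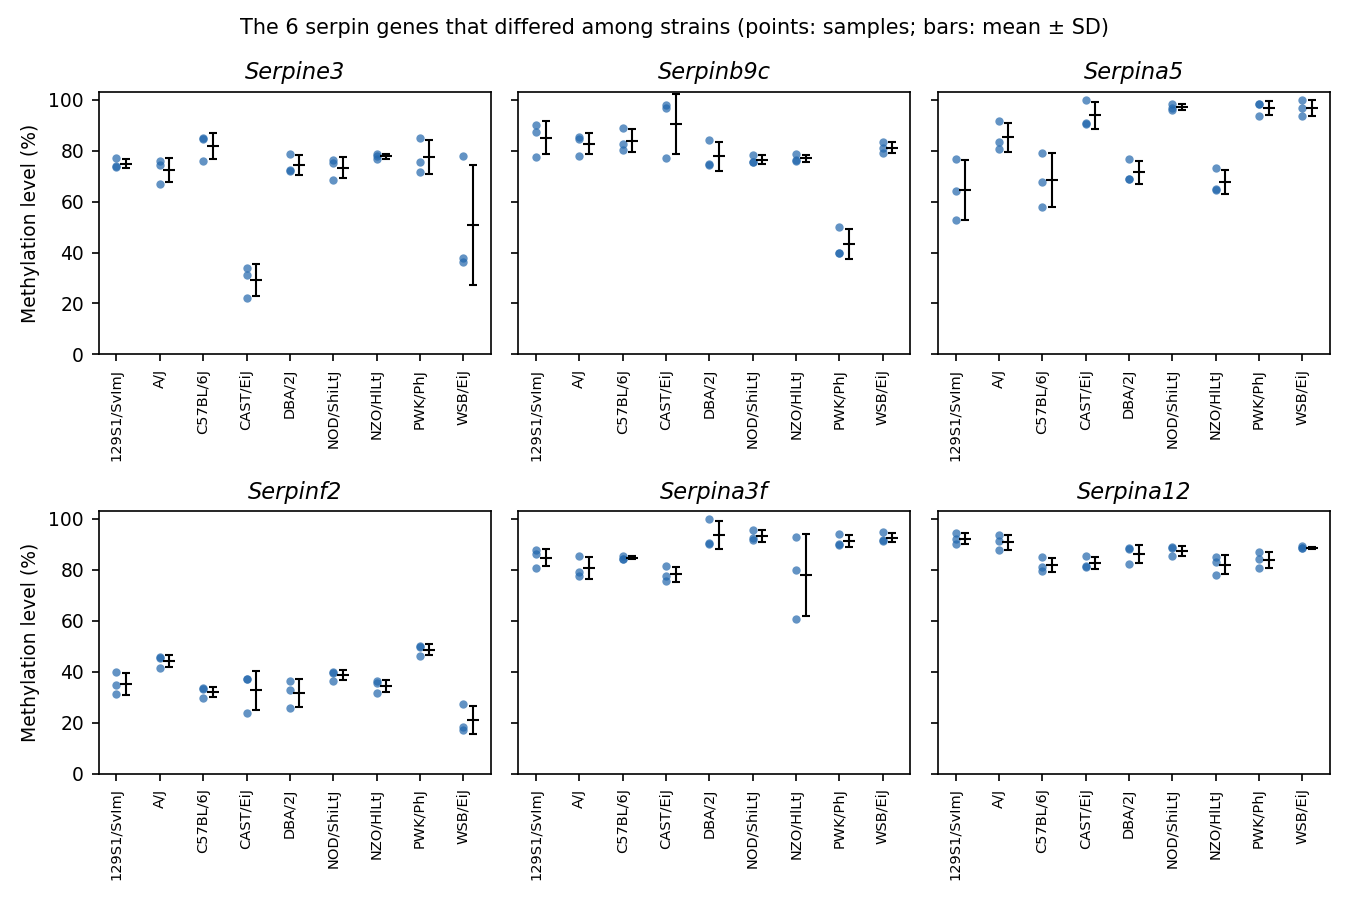
Methylation level in percent (vertical axis) of the 6 called serpin genes in each strain (horizontal axis). Points are single samples and bars are mean ± SD of 3 samples, and CAST/EiJ at Serpine3 (29.2%) and PWK/PhJ at Serpinb9c (43.3%) lie apart from most strains.

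Serpine3 (chr14:62663298-62692243), a clade e member, had the widest range of the 26 tested serpins, 52.6 points. The CAST/EiJ samples were at 22.2, 31.3 and 34.0% (29.2% ± 6.19, SD, n = 3). The WSB/EiJ samples were at 36.3, 37.9 and 77.8% (50.7% ± 23.5). The 21 samples of the other 7 strains lay between 66.8 and 84.9%, above all CAST/EiJ samples and above 2 of 3 WSB/EiJ samples. The moderated F test gave an adjusted p of 1.48e-04. Without CAST/EiJ and PWK/PhJ the range was 31.1 points and the adjusted p 0.0992, so the call ended.

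The 5 positions of Serpine3 that lay 1395 to 1497 bp after its start carried this difference, and all 5 passed the test on single positions. That test, which asked for strain means at least 25 points apart besides an adjusted p under 0.05, called 37638 of 868536 positions (4.33%) and 20 of 285 serpin positions (7.02%). At 1395 bp CAST/EiJ was at 25, 0 and 20%, WSB/EiJ at 0% in 2 samples and not listed in the third, and the other strains between 52.4 and 100%. At 1430 bp CAST/EiJ was at 41.7, 20 and 41.7%, WSB/EiJ again at 0% in 2 samples, and the others between 69.6 and 100%. At 1418 bp CAST/EiJ was at 16.7, 0 and 4%, WSB/EiJ at 0% in the same 2 samples, and the others between 20 and 73.9%. CAST/EiJ was therefore low at all 3, and WSB/EiJ had no methylated call there.

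At 1441 and 1497 bp the strains divided differently. The CAST/EiJ samples were at 6.67, 8.33 and 0% at 1441 bp, and WSB/EiJ was at 68.8, 63.6 and 66.7%, among the other strains. At 1497 bp CAST/EiJ was at 4.17, 10.5 and 0% and WSB/EiJ at 80, 87.5 and 78.9%. Over these last 2 positions CAST/EiJ averaged 4.95% ± 4.73 and WSB/EiJ 74.3% ± 1.38 (SD, n = 3 each). The WSB/EiJ sample with the high gene level is the one not listed at the first 3 positions, so its level averages fewer positions than the other 2. With only positions listed in all 27 samples Serpine3 stayed called, with a range of 52.9 points. The strains' own genomes were not used, and a DNA variant at a cytosine and a difference in methylation cannot be told apart in these values.

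**Figure D3:**
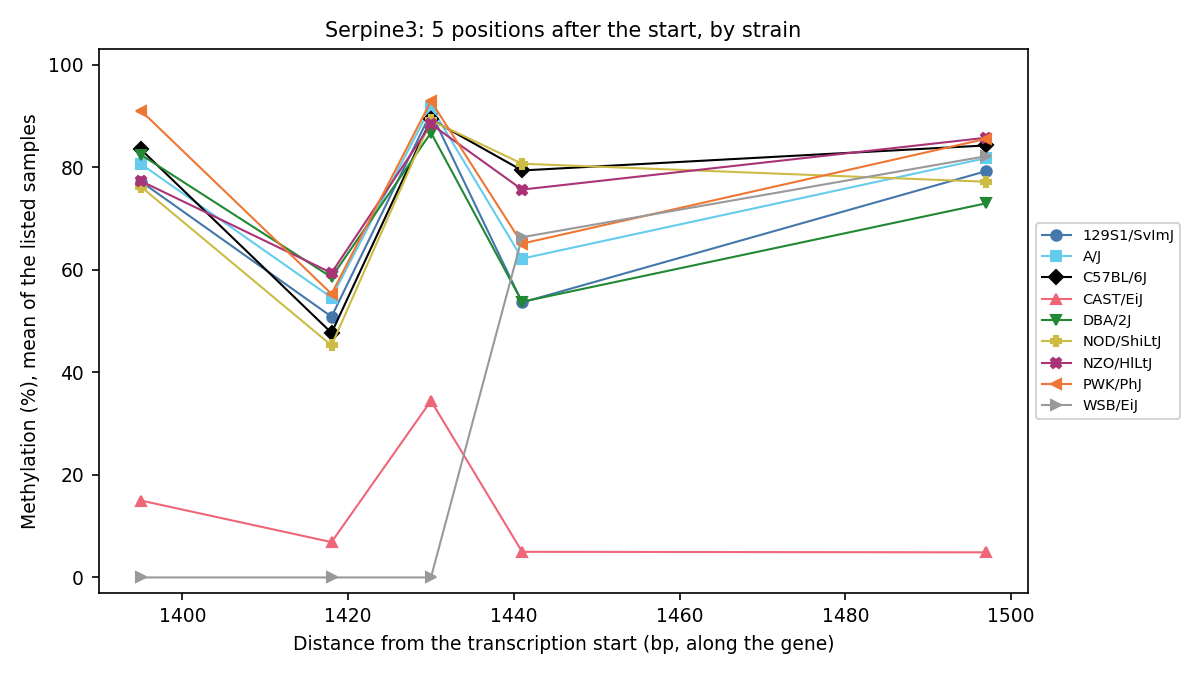
Methylation in percent (vertical axis) at 5 Serpine3 positions against their distance in bp after the start (horizontal axis), 1 line per strain as the mean of its listed samples. CAST/EiJ is low at all 5, and WSB/EiJ is at 0% at the first 3 (2 samples) and near the other strains at the last 2.

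Serpinb9c (chr13:33149275-33159754) belongs to the intracellular granzyme-inhibitor group. The PWK/PhJ samples were at 40, 40 and 50% (43.3% ± 5.77, SD, n = 3), and the 24 samples of the other 8 strains between 74.3 and 98.0%. The groups did not overlap, and the moderated F test gave an adjusted p of 3.32e-04. Its 5 positions lie in the promoter printed above, at CpG 3, CpG 4 and CpG 6, counted from the 5′ end. That promoter belongs to the inner start, and the start at the gene's 5′ end was not read. At CpG 3 and CpG 4 the cytosines of the strand opposite to the gene were at 0% in 2 PWK/PhJ samples, and not listed in the third. The 23 listed samples of the other strains were at 66.7 to 100% at CpG 3 and 31.2 to 100% at CpG 4. On the gene's own strand CpG 3 was at 100% in PWK/PhJ and CpG 4 at 33.3%. The 2 strands of 1 CpG thus gave unlike values in this strain, and a variant and methylation cannot be told apart here either. Without CAST/EiJ and PWK/PhJ the range was 8.50 points and the gene was not called. With only positions listed in all 27 samples Serpinb9c had fewer than 3 positions and was not tested.

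Serpina5 (chr12:104099313-104106138) separated the strains into 2 groups with A/J between them. The 12 samples of CAST/EiJ, NOD/ShiLtJ, PWK/PhJ and WSB/EiJ lay between 90.6 and 100%. The 12 samples of 129S1/SvImJ, C57BL/6J, DBA/2J and NZO/HlLtJ lay between 52.9 and 79.2%, and the A/J samples were at 80.6, 83.3 and 91.7%. The range of strain means was 32.5 points, and the moderated F test gave an adjusted p of 9.45e-06. All 4 positions lay upstream of the gene span, and the 2 called ones, at 104098568 and 104098576, were at -2545 and -2537 bp from the annotated start. That start lies inside the gene span, so both positions were nearer to the 5′ edge of the span than to it. The edge itself has no start in the promoter table. At -2545 bp the PWK/PhJ samples were at 92.9, 100 and 100% and the NZO/HlLtJ samples at 58.3, 70.6 and 40%. NOD/ShiLtJ, a classical laboratory strain, was on the high side with the wild-derived strains, and the call held without CAST/EiJ and PWK/PhJ.

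Serpinf2 (chr11:75431736-75439501, minus strand) was the called gene of the hepatocyte list, with an adjusted p of 1.81e-04 in the moderated F test and a range of 27.7 points. The PWK/PhJ samples were at 46.4, 49.7 and 50.05% (48.7% ± 2.04, SD, n = 3) and the A/J samples at 41.5, 45.4 and 46.0% (44.3% ± 2.43). The WSB/EiJ samples were at 17.2, 18.4 and 27.3% (21.0% ± 5.54). The 18 samples of the other 6 strains lay between 23.8 and 39.8%, below all A/J and PWK/PhJ samples. WSB/EiJ overlapped these 6 strains through 1 of its samples.

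Within Serpinf2 the strain order depended on the place. Just past the 3′ end of the gene, 18 positions 7766 to 8127 bp from the start averaged 47.7% ± 4.67 in PWK/PhJ and 47.2% ± 2.71 in A/J (SD, n = 3 each). They averaged 24.2% ± 3.99 in CAST/EiJ and 25.3% ± 5.70 in WSB/EiJ. At 6 positions inside the gene, 3072 to 3346 bp from the start, CAST/EiJ was the highest at 69.3% ± 13.2 and WSB/EiJ the lowest at 14.5% ± 6.47. CAST/EiJ was thus low in the first group and high in the second, which leaves its gene mean at 32.7% ± 7.71. Of the 26 positions 6 were called, 5 of them past the 3′ end. At 8047 bp the A/J samples were at 87.5, 80 and 66.7% and the CAST/EiJ samples at 7.14, 7.69 and 16.7%. At 8048 bp, the other strand of the same CpG, A/J was at 87.5, 64.3 and 80% and CAST/EiJ at 14.3, 4 and 11.8%, so both strands gave the same order. The called position inside the gene, at 3082 bp, was at 66.7, 100 and 80% in CAST/EiJ and at 12.5, 0 and 23.1% in WSB/EiJ.

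**Figure D4:**
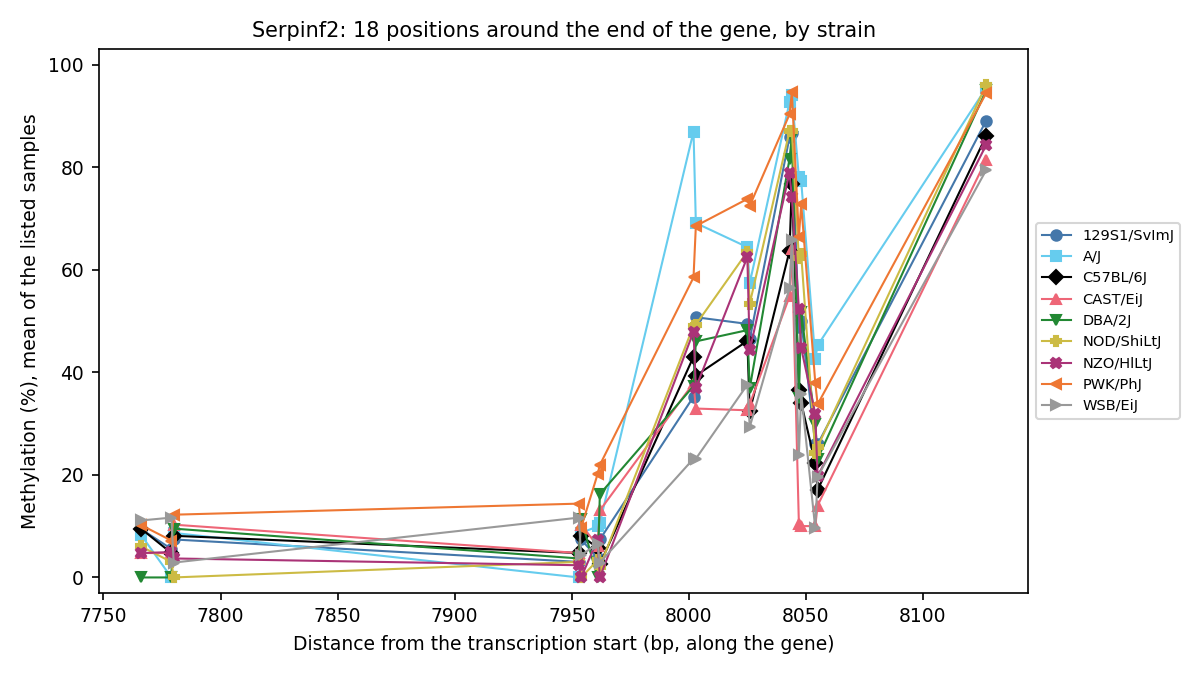
Methylation in percent (vertical axis) at 18 positions past the 3′ end of Serpinf2 against distance in bp from the start (horizontal axis), 1 line per strain as the mean of its listed samples. Strain means stay under 25% up to 7962 bp, and A/J and PWK/PhJ lie high and CAST/EiJ and WSB/EiJ low at 8047 bp.

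Serpina12 and Serpina3f, both on chromosome 12, showed smaller ranges near full methylation. At Serpina12, an adipokine serpin, the 6 samples of 129S1/SvImJ and A/J lay between 87.7 and 94.4%, and the 9 of C57BL/6J, CAST/EiJ and NZO/HlLtJ between 78.0 and 85.4%. The range was 10.4 points and the adjusted p 0.00151 in the moderated F test. Without replicate 3 of 129S1/SvImJ the range was 9.29 points, under the threshold. At its called position, 8076 bp from the start, the 129S1/SvImJ samples were at 92.9, 82.1 and 83.3% and the NZO/HlLtJ samples at 40, 41.9 and 21.4%.

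At Serpina3f the 12 samples of DBA/2J, NOD/ShiLtJ, PWK/PhJ and WSB/EiJ lay between 89.6 and 100% and the 6 of A/J and CAST/EiJ between 75.5 and 85.5%. The range was 15.7 points, between DBA/2J (93.6%) and NZO/HlLtJ (77.9%), and the adjusted p was 0.0262 in the moderated F test. The NZO/HlLtJ samples were spread over 60.8, 80.1 and 92.8% and overlapped those of DBA/2J (90.3, 90.4 and 100%). The 129S1/SvImJ samples lay between 80.9 and 87.6% and the C57BL/6J samples between 84.4 and 85.6%. The call ended in 4 alternatives: without replicate 5 of CAST/EiJ (adjusted p = 0.0514), without CAST/EiJ and PWK/PhJ (0.126), with an offset of 1 point in the log ratio (0.0637) and with the replicate block (0.0762). At its called position CAST/EiJ was at 40, 50 and 35.3%, and the 24 other samples were between 72.2 and 100%, with no overlap.

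Serpinc1, the antithrombin gene, lay just outside the threshold, with a range of 9.90 points and an adjusted p of 0.0412 in the moderated F test. The CAST/EiJ samples were at 10.4, 12.2 and 12.5% (11.7% ± 1.14, SD, n = 3) and the NZO/HlLtJ samples at 0.98, 1.7 and 2.78% (1.82% ± 0.90). The PWK/PhJ samples were at 5.31, 6.22 and 17.1%. The 21 samples of the 7 strains other than CAST/EiJ and PWK/PhJ, NZO/HlLtJ among them, lay between 0 and 15%. CAST/EiJ overlapped PWK/PhJ through 1 sample and these 7 strains through 1 sample of A/J. Without replicate 2 of NOD/ShiLtJ the range was 11.1 points and the gene was called. Over the alternatives the adjusted p ran from 0.00215 to 0.553. It was above 0.05 in many of them, among them each that left out a CAST/EiJ sample (0.0764 to 0.1001), strands averaged (0.0721), untransformed percentages (0.0759) and the replicate block (0.157). The highest value came without CAST/EiJ and PWK/PhJ, where the range was 4.38 points.

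In 3 genes that did not pass as a whole, Serping1, Serpina1d and Serpinb6a, 1 position each was called. The Serpinb6a position lay inside the gene span, at -27393 bp from the nearest listed start, which is an inner one. There CAST/EiJ was at 37.5, 85.7 and 57.1% and the 24 other samples between 75 and 100%. At Serpina1d NZO/HlLtJ was at 47.2, 58.1 and 40% and DBA/2J at 84.2, 87 and 83.3%, with the uncertainty of a near-identical copy. The 20 called positions were lowest in CAST/EiJ at 8, in WSB/EiJ at 6, in NZO/HlLtJ at 3, in PWK/PhJ at 2 and in C57BL/6J at 1. Over all 37638 called positions, CAST/EiJ was the lowest strain at 13.6%, WSB/EiJ at 12.7%, NZO/HlLtJ at 7.79%, PWK/PhJ at 10.3% and C57BL/6J at 12.6%, and 15.7% had tied lowest strains. The serpin positions are few and lie close together, 6 in Serpinf2 and 5 in Serpine3, so the 2 tallies were not compared by a test. Of those with a known start 2 lay within 1 kb of it, both at the inner start of Serpinb9c, and 12 of the 20 lay inside a gene span. The Serping1 position has no start in the promoter table. Without CAST/EiJ and PWK/PhJ 7 serpin positions were called, and over the whole table the count fell to 12675.

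Serping1 did not pass at the gene level (adjusted p = 0.687 in the moderated F test, range 7.28 points). Its range was 3.79 points without the 2 kb flank, and it was not called there either. The NZO/HlLtJ samples were at 0, 12.8 and 13.6%, and the sample at 0% was listed at none of the 3 highly methylated positions. Serpinf1 (range 11.9 points, adjusted p = 0.358) and Serpina10 (12.3 points, 0.913) also missed the threshold. Serpinb6a, Serpini1 and Serpina9 had ranges of 1.00, 1.11 and 1.82 points, near the ends of the scale, where ranges are limited. The Serpini1 range was 11.1 points without the 2 kb flank, where it was not called either.

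A further list held 20 proteases that serpins inhibit or that act in the same cascades. At least 3 positions were held by 15 of the 20, against 27 of 63 serpins. All 15 were tested, with a median level of 67.9% and a median range of 6.67 points, against 3.19 points over all genes tested. The moderated F test gave an adjusted p under 0.05 for 5 of the 15 (30.2% of all genes), and 4 of them (F2, Proc, Prtn3 and Hgfac) were called with a range of at least 10 points, against 8.2% of all genes. F7 missed the call with a range of 6.67 points. F2, which encodes prothrombin, the target of antithrombin, ran from 48.1% ± 7.91 in C57BL/6J to 60.2% ± 2.82 in PWK/PhJ (SD, n = 3 each). Prtn3, the neutrophil protease that antitrypsin inhibits, ran from 63.6% ± 3.54 in CAST/EiJ to 83.1% ± 3.84 in A/J.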

How the data were processed

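RRBS libraries (Ovation RRBS Methyl-Seq, MspI digestion) of hepatocyte DNA were measured in 27 samples, 3 for each of 9 strains. The authors deposited 1 list per sample with the percent methylation of each cytosine position, and per the file headers no read counts, so depth is unknown and no counting interval was possible. The submitters' processing notes name Trim Galore 0.6.3, Bowtie2, Bismark 0.22 and GRCm38 (mm10); a coverage minimum and the handling of multiply placed reads are not given in the sources used here. The 3 C57BL/6J lists name the mitochondrion differently from the 24 others, so a difference in processing and in strain cannot be told apart there. Of the kept positions in promoter windows, 99.96% fell on a CpG of the RefSeq GRCm38.p6 promoters.

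Gene levels are means over the listed kept positions within 2 kb of a gene span, without weighting or imputation, so a sample missing a position averages the rest. Genes with at least 3 positions, and single positions, were tested on log2 of the methylated over the unmethylated percentage, each plus 5 points, where the mean lay between 2.5 and 97.5%, with moderated F tests (limma 3.58.1 in R 4.3.3) and Benjamini-Hochberg adjustment over the whole table. Strain was the only term. A gene was called with an adjusted p under 0.05 and a range of strain means of at least 10 points, a position with at least 25. The named genes are Serpina1a, Serpinc1, every called member, and the 3 highest and 3 lowest of each list, with the 10 called positions of largest range in which the highest and lowest strain do not overlap. Other members are named for their role and were chosen after their values were seen, as were the position groups in Serpine3 and Serpinf2, the strain groupings and the printed promoters. Members and lists were chosen with earlier results of these data known. On simulated data, shifts of 10 points in 1 strain were called in 80% of shifted genes and shifts of 20 points in 97% (15238 genes). Position shifts of 50 points were called in 93.6%. The shifted genes had intermediate levels, and the shifted positions had levels of 2.5 to 20%. These rates were not measured for genes near the ends of the scale, nor separately for genes with few positions. The p-values measure the spread between samples labelled as biological replicates. The gene table gives spans without exons, so exonic and intronic positions were not separated, and starts come from the promoter table. Alternatives covered the flank, the minimum positions and samples, the minimum range, the strand, the 5-point offset and the log scale, the filter on the mean, the block, and leaving out samples or strains. 1 member is counted in the totals but not reported by name here.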

Additional observations from a re-analysis of the deposited data

How the results depend on the processing

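Of 732 alternative values, 0 reversed and 715 counted as unchanged. Unchanged meant a gene's range on the same side of its call, or a count within 1.5 times the main count. For the list difference it meant a value within the replicate spread (6.58 points). Ranges and counts are never negative, so only the list difference could reverse. It stayed negative, with 35 values unchanged and 2 outside the spread. For each result 27 values came from leaving out 1 sample, and uncalled genes that stayed uncalled counted as unchanged. Serpinc1 was unchanged in 38 alternatives while its adjusted p ran from 0.00215 to 0.553 in the moderated F test. The count of called serpin genes was 6, between 5 and 8 when 1 sample was left out, 5 with the replicate block, and 3 without CAST/EiJ and PWK/PhJ (Serpinf2, Serpina12 and Serpina5), where the count over all genes fell from 1254 to 601. The count of called serpin positions was 20, between 16 and 20 when 1 sample was left out, 13 with an offset of 1 point in place of 5 (25142 over all positions, against 37638), 12 of 208 with no flank, 12 of 238 with the replicate block and 7 without CAST/EiJ and PWK/PhJ, where the count over all positions was 12675. The block was fitted on positions listed in all 27 samples, where 15 of 238 were called without it, and over all such positions the block moved the count from 35021 to 26437. The difference of list medians stayed between -29.2 and -28.1 points when 1 sample was left out. It was -20.8 points with positions farther than 1 kb from a start, over 6 and 13 genes. With means in place of medians it was -16.3 points. Within 1 kb of a start the difference had no value, since no gene of the hepatocyte list held 3 positions there. Serpina12 had a range of 8.99 points with a 5 kb flank and was not called. Serpina1d was called with positions listed in all 27 samples, with a range of 17.0 points. With the replicate block Serpina3f had an adjusted p of 0.0762 in the moderated F test, and 0.0637 with the 1-point offset. The cause of these changes was not tested.

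Replicate numbers are shared between strains, and the block uses them. Samples with the same number did not deviate together: 76 such pairs had a mean correlation of 0.0063, 0 of them over 0.1, so the numbers do not pair the samples. Genes read at under 10 positions and the unknown read depth limit the precision of single levels.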
